A study of Mus musculus with 4 samples.

Results

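Cells that expressed *Myog* and still carried the transcripts of an active cell cycle were examined in leg muscles of mouse fetuses, in wild-type (WT) animals and in animals with a knockout (KO) of *SYISL*. The cells were chosen by their measured counts. A cell was taken if it held at least 3 unique molecular identifiers (UMIs, each standing for 1 captured transcript) of *Myog*, at least 3 of *Mki67* and *Top2a* together, none of *Pdgfra*, and if the contractile genes *Acta1*, *Ckm*, *Mylpf*, *Tnnc2*, *Tnnt3* and *Myl1* made up under 0.5% of its UMIs. This rule found 347 cells among the 36969 cells that passed the study's limits on genes, UMIs and mitochondrial UMIs. The WT libraries contributed 69 (replicate 1) and 66 (replicate 2), the KO libraries 91 and 121. They are called cycling *Myog*-positive cells here.

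All fetuses were taken at E18.5, shortly before birth, and were littermates from heterozygous mothers, and 2 libraries were made per genotype from leg muscle that had been digested with trypsin. *SYISL* is a long non-coding RNA that lies within the gene *Synpo2*. The knockout was carried by the whole animal and not by muscle alone, leg muscles were isolated fetus by fetus, and whether a library held 1 fetus was not stated in the sources used here. No gene in the count tables was named *SYISL*, so its loss was not read here.

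During fetal muscle growth, progenitors marked by *Pax7* and *Myf5* divide, turn on *Myod1* and then *Myog*, leave the cell cycle and fuse into multinucleated fibres. Myogenin, the product of *Myog*, is a basic helix-loop-helix factor that activates genes of the contractile apparatus, the neuromuscular junction and fusion. Withdrawal from the cycle is usually tied to this step through the inhibitor p21 (*Cdkn1a*) and the retinoblastoma protein (*Rb1*). A cell with both *Myog* and mitotic transcripts may thus stand between progenitor and fusing myocyte.

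The 4 libraries held 109653824 to 126257094 UMIs, and kept cells had a median of 9118 to 11427 UMIs. KO replicate 2 stood apart, since it held 131038 UMIs of the X-inactivation transcript *Xist* against 0 to 5 in the other libraries, and 105 UMIs of Y-linked genes against 25478 to 27856. The shares, the numbers of called genes and the genes with the smallest p are therefore also given without it. Any pair of libraries shared 15 to 27 cell barcodes. The summed cells that follow rest on 1121276 to 1771414 UMIs per library.

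The promoters of 4 genes that describe these cells are shown, taken from RefSeq (GRCm38.p6) as the bases before the annotated start, without those that GENCODE vM21 places inside a transcript. *Top2a*, a gene of the selection rule, and *Cdk1*, the kinase of mitosis, stand for the cell cycle side. Capitals mark CCAAT, the box bound by the factor NF-Y, and TTTGAA, the core of an element common in promoters of G2 and mitotic genes. *Top2a* lies at chr11:99024190-99024439 on the minus strand and *Cdk1* at chr10:69352939-69353162 on the minus strand.
Top2a: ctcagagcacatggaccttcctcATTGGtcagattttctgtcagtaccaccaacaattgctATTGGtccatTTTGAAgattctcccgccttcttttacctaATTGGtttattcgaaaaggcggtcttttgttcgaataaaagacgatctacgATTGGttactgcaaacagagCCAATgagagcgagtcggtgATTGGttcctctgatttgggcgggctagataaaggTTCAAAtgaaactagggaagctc
Cdk1: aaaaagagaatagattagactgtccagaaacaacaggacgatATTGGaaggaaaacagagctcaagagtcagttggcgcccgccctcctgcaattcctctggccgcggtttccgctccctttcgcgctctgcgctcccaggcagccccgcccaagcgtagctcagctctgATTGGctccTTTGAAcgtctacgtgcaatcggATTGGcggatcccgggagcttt

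*Myog* itself and *Chrna1*, the alpha subunit of the muscle acetylcholine receptor, stand for the differentiation side. Capitals mark CANNTG in *Myog*, the E-box read by helix-loop-helix factors, and its form CAGCTG in *Chrna1*. *Myog* lies at chr1:134289754-134289988 on the plus strand and *Chrna1* at chr2:73580339-73580588 on the minus strand.
Myog: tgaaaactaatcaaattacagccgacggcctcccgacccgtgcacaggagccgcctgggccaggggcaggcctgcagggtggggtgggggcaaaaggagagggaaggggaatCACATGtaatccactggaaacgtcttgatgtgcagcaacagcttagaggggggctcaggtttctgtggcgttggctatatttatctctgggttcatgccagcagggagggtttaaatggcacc
Chrna1: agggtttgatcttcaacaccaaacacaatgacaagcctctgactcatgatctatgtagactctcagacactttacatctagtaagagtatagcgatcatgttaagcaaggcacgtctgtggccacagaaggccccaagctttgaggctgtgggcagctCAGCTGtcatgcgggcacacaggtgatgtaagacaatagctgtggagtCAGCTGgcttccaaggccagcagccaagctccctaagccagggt

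All motifs were searched on both strands. In these windows, *Top2a* held 6 matches of CCAAT and 2 of TTTGAA, and *Cdk1* held 3 and 1. *Myog* held 1 CANNTG and *Chrna1* held 2 CAGCTG, 44 and 92 bases before the start. CCAAT was found in 33.8% of the 32851 promoters of the RefSeq table (250 bases each), TTTGAA in 16.0%, CANNTG in 66.2% and CAGCTG in 13.0%. Of 27 cyclin, CDK and mitotic genes with a promoter in the table, 20 held CCAAT and 9 held TTTGAA, beside 37.5% and 18.3% of all genes. Of 24 early differentiation genes with a promoter, 9 held CAGCTG, beside 14.7% of all genes, and 19 held CANNTG, beside 69.3%. CCAAT was found in 7 and TTTGAA in 2 of these 24, and CANNTG in 14 and CAGCTG in 3 of the 27 mitotic genes. A match describes the letters of the window and is no evidence of binding.

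The values that chose the cells were well inside the limits for most of them. *Myog* ranged from 3 to 137 UMIs per cell with a median of 21, and *Mki67* and *Top2a* together had a median of 16 and reached 65. At the limit, 20 cells held exactly 3 *Myog* UMIs, while 35 cells with 2 were left out. Likewise 13 cells held exactly 3 *Mki67* and *Top2a* UMIs, while 46 cells with 2 and 168 cells with 1 were left out. The contractile limit left out 1 cell, and no cell lay between 0.4% and 0.6%. The condition on *Pdgfra*, a gene of fibro-adipogenic progenitors, left out 43 cells, of which 26 were in KO replicate 2.

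The label was checked on genes that the rule had not used. *Ccnb1*, which encodes the cyclin that drives entry into mitosis, was detected in 79.0% of the cycling *Myog*-positive cells. It was found in 2.53% of *Myog*-positive cells without an *Mki67* or *Top2a* UMI, a contrast that the split on these genes in part sets. *Myod1* was detected in 94.5% of the cells and at least 1 of *Pax7*, *Myf5* and *Myod1* in 95.4%. Of the markers of other cell types, those of fibro-adipogenic progenitors (9 of 10 with a UMI, 682 to 1130 CPM, or UMIs of the genes per 1000000 UMIs of the summed cells) and of smooth muscle cells and pericytes (9 of 9 with a UMI, 457 to 814 CPM) had the highest sums. Macrophage markers summed to 7.56 to 26.0 CPM and neutrophil markers to 2.26 to 6.24 CPM, with *Ly6g*, *Mmp8* and *Fcer1a* at 0. All 8 endothelial and all 8 glial markers had a UMI, with sums of 36.0 to 97.1 and 10.7 to 55.9 CPM. Tenocyte markers summed to 36.9 to 87.4 CPM, chondrocyte markers to 51.7 to 251 CPM and mast cell markers to 6.24 to 13.0 CPM.

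Free RNA and doublets can put *Myog* into a cell, and the same threshold was therefore read in cells that should lack it. At least 3 *Myog* UMIs were found in 0.577% of 10406 cells with 3 or more *Pdgfra* UMIs (median 11551 UMIs), in 1.28% of 1950 cells with 3 or more *Pecam1* and *Cdh5* UMIs (median 11605) and in 0.421% of 949 cells with 3 or more *Ptprc* and *Itgam* UMIs (median 10684). Among the cells of these classes with at least 3 *Mki67* and *Top2a* UMIs, the shares were 0.834%, 1.59% and 0%. For *Pdgfra* this share was 1.48% in KO replicate 2 and 0.371% to 0.851% in the other libraries. The cycling *Myog*-positive cells had a median of 15317 UMIs. The doublet caller Scrublet marked 12 of them, or 3.46%. It marked 1.36% of *Myog*-positive cells without *Mki67* or *Top2a* UMIs and 2.07% of cycling myogenic cells without a *Myog* UMI. It marked 18.6% of the 43 cells left out for *Pdgfra*.

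To compare how often these cells occurred in WT and KO muscle, their share was taken per library. Of kept cells they made up 0.810% in WT replicate 1 and 0.807% in WT replicate 2, against 0.927% and 1.16% in the first and second KO library. The KO values were both above the WT values, with a mean of 1.04% ± 0.162 against 0.809% ± 0.00226 (SD, n = 2). The difference was 0.233 percentage points. A two-sided exact permutation test, which can arrange 4 libraries in 6 ways, gave p = 0.33. This is the smallest p the design allows, and the adjusted value over the 2 share measures was also 0.33. Without KO replicate 2 the difference was 0.118 percentage points.

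Among the 1666 *Myog*-positive cells, 19.5% and 18.7% were cycling in WT muscle (replicates 1 and 2) and 20.2% and 23.8% were cycling in KO muscle. KO replicate 1 thus lay close to the WT libraries and within their counting intervals, which ran from 15.5% to 24.0% and from 14.8% to 23.2% (95% Clopper-Pearson intervals, which cover counting error only). The means were 19.1% ± 0.562 and 22.0% ± 2.51 (SD, n = 2), and the difference of 2.90 percentage points gave an exact permutation p of 0.33. Without KO replicate 2 it was 1.13 percentage points.

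The rule counts UMIs, and the libraries differed in depth. When each cell was thinned to 5000 UMIs, with 902 WT and 1621 KO cells left out as shallower, cycling *Myog*-positive cells were 0.612% and 0.552% of WT cells and 0.561% and 0.920% of KO cells. KO replicate 1 then lay between the WT libraries and KO replicate 2 alone was higher (difference 0.158 percentage points, exact permutation p = 0.667). Of *Myog*-positive cells they were 15.6% and 13.5% in WT and 12.3% and 19.4% in KO, a difference of 1.28 percentage points (exact permutation p = 1). At 3000 UMIs per cell the difference in the share of *Myog*-positive cells turned to −0.630 percentage points. A difference between genotypes was not separable from the spread between libraries. With 2 libraries per genotype, the exact permutation test could not give a p under 0.33 at any depth.

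**Figure D1:**
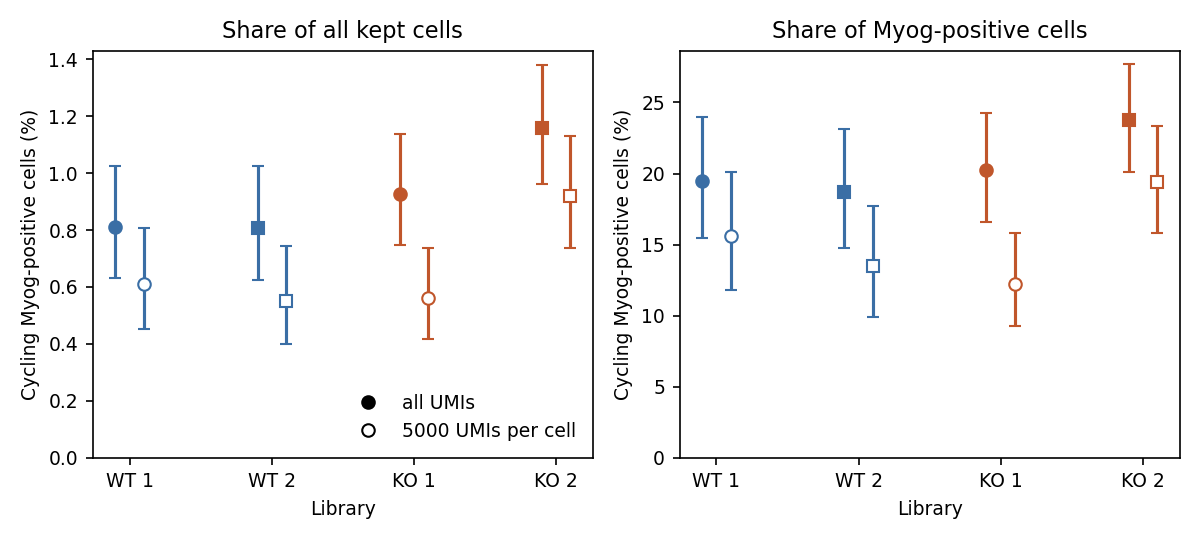
Cycling *Myog*-positive cells in percent of all kept cells (left) and of *Myog*-positive cells (right) in each library, with filled points for all UMIs, open points after thinning to 5000 UMIs per cell and bars for 95% Clopper-Pearson intervals. With all UMIs, KO replicate 2 was highest at 1.16% and 23.8%, and after thinning KO replicate 1 lay among or below the WT libraries.

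The share of cells in cycle was lower at higher *Myog* content. Among myogenic cells with low contractile content, taken as those with at least 3 *Myog* UMIs or at least 3 UMIs of *Pax7*, *Myf5* and *Myod1* together, at least 3 *Mki67* and *Top2a* UMIs were found in 43.1% of 2803 cells without *Myog* and in 51.0% of 241 cells with 1 or 2 *Myog* UMIs. The share was 29.8% of 289 cells with 3 to 9 *Myog* UMIs, 26.6% of 507 with 10 to 29 and 14.5% of 870 with 30 or more. In the last bin the libraries ranged from 12.3% to 15.9%, below every value of the bins under 3 UMIs, which ranged from 39.9% to 60.8%. These shares use raw UMIs, the bins differ in how their cells were chosen, and no test was made.

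**Figure D2:**
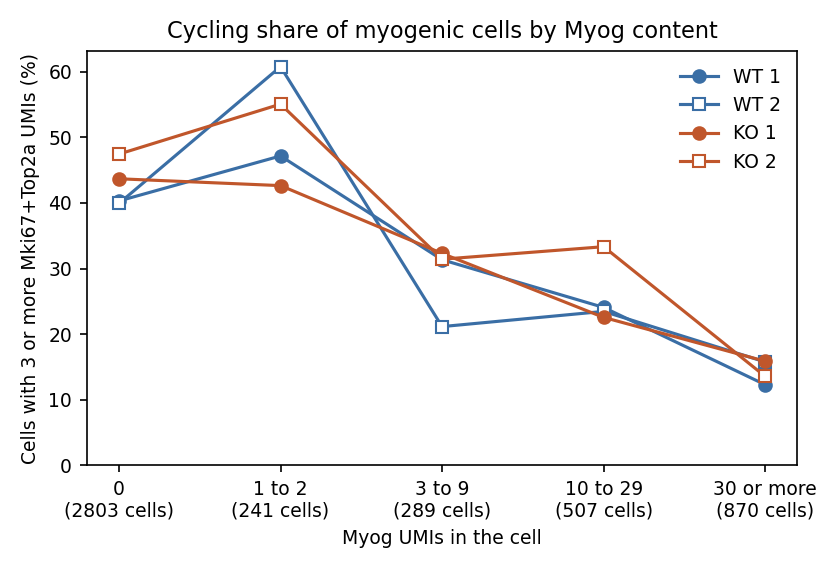
Percent of myogenic cells with at least 3 *Mki67* and *Top2a* UMIs against the number of *Myog* UMIs in the cell, with 1 line per library and the number of cells of all libraries under each bin. All 4 lines ended between 12.3% and 15.9% in cells with 30 or more *Myog* UMIs.

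To place the cycling *Myog*-positive cells, their summed UMIs were set beside those of the sets on either side of them in the same libraries. One was 1105 *Myog*-positive cells without an *Mki67* or *Top2a* UMI, called non-cycling here. The other was 1208 cycling myogenic cells with no *Myog* UMI and at least 3 UMIs of *Pax7*, *Myf5* and *Myod1* together. Since all sets were chosen on measured counts, the differences are described and not tested, and each value is a level in CPM. Among the 8966 genes with at least 10 CPM in a set, 32.9% were higher and 25.8% lower in cycling than in non-cycling *Myog*-positive cells in all 4 libraries. Against cycling *Myog*-negative cells, 25.3% were higher and 31.4% lower.

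Mitotic transcripts beyond those of the rule were present. All 30 cyclin, CDK and mitotic genes outside the rule were higher than in non-cycling *Myog*-positive cells in every library, beside 32.9% of all genes. The median ratio was 48.5 (1.03 over all genes). These sets were split by *Mki67* and *Top2a*, so higher levels of other cell cycle genes are in part set by the rule. *Cdk1* stood at 603, 591, 591 and 579 CPM in WT replicates 1 and 2 and KO replicates 1 and 2, against 17.6 to 29.05 CPM in non-cycling cells and 516 to 556 CPM in cycling *Myog*-negative cells. *Ccnb1* stood at 219, 245, 240 and 194 CPM, against 2.22 to 4.51 CPM and 127 to 155 CPM. For both genes all 4 libraries of the cycling *Myog*-positive cells lay above those of both other sets.

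*Ube2c*, *Cdc20* and *Aurka* were also higher than in both other sets in all 4 libraries. Like *Cdk1* and *Ccnb1*, they were picked from the 10 of the 30 genes above cycling *Myog*-negative cells. None of the 6 genes below is described here. *Ube2c*, the conjugating enzyme of the anaphase-promoting complex, stood at 940 to 1086 CPM, against 33.0 to 46.8 CPM in non-cycling and 627 to 753 CPM in cycling *Myog*-negative cells. *Cdc20*, which activates that complex, stood at 263 to 301 CPM against 180 to 248 CPM in cycling *Myog*-negative cells, and the kinase gene *Aurka* at 128 to 154 CPM against 84.2 to 103 CPM. In all, 10 of the 30 genes were higher and 6 lower than in cycling *Myog*-negative cells in all 4 libraries. This stood beside 25.3% and 31.4% of all genes, and the median ratio was 1.03.

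Genes of DNA replication were also on, at lower levels than in cycling *Myog*-negative cells. Of 30 genes, 29 were above non-cycling *Myog*-positive cells in all 4 libraries (median ratio 4.48), beside 32.9% of all genes. The split on *Mki67* and *Top2a* in part sets this contrast. Against cycling *Myog*-negative cells, 15 were below and 3 above (median ratio 0.872, beside 0.974 over all genes). Over all genes these shares were 31.4% and 25.3%. *Pcna*, the sliding clamp of the replication fork, stood at 321, 310, 285 and 288 CPM against 59.7 to 78.7 CPM in non-cycling cells and 339 to 366 CPM in cycling *Myog*-negative cells. *Mcm2*, a subunit of the replicative helicase, was an exception and reached 63.5 to 85.8 CPM against 31.1 to 39.9 CPM in cycling *Myog*-negative cells. The summed replication list divided by the summed mitotic list was 0.353 to 0.414 in the cycling *Myog*-positive cells and 0.459 to 0.548 in cycling *Myog*-negative cells, without overlap.

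Genes that hold cells out of the cycle were split. Of 21 measured genes of this list, 7 were above and 8 below non-cycling cells in all 4 libraries (median ratio 1.01). Over all genes the shares were 32.9% above and 25.8% below. Against cycling *Myog*-negative cells, 8 were above and 7 below (median ratio 0.991), beside 25.3% and 31.4% of all genes. *Cdkn1a*, which encodes the CDK inhibitor p21, stood at 305, 340, 360 and 278 CPM. These levels overlapped those of non-cycling *Myog*-positive cells (286 to 379 CPM) and lay above those of cycling *Myog*-negative cells (103 to 161 CPM). *Cdkn1c*, the gene of the inhibitor p57, stood at 7418, 7798, 7365 and 7657 CPM, between cycling *Myog*-negative cells (4052 to 4900 CPM) and non-cycling cells (8056 to 8842 CPM).

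*Rb1*, whose product holds E2F factors in check, was likewise close to the non-cycling state. It stood at 371 to 456 CPM, against 411 to 501 CPM in non-cycling *Myog*-positive cells and 70.4 to 96.5 CPM in cycling *Myog*-negative cells. Its relative *Rbl1* (p107) went the other way, with 37.3 to 49.1 CPM against 2.20 to 5.08 CPM in non-cycling cells. The antiproliferative gene *Btg1* was intermediate at 371 to 465 CPM, between 213 to 239 CPM and 691 to 826 CPM. The inhibitor genes *Cdkn2c* (p18) and *Cdkn2d* (p19) were at 112 to 138 and 115 to 136 CPM, far above the 3.33 to 7.30 and 8.14 to 15.3 CPM of non-cycling cells. For *Rbl1*, *Cdkn2c* and *Cdkn2d* only the non-cycling set is given, which was chosen for lacking *Mki67* and *Top2a* UMIs. Of the 21 measured genes of the list, 1 was above both other sets in all 4 libraries, beside 597 of all 8966 genes.

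Cyclin and kinase genes of G1 did not follow one pattern. *Ccnd1*, the cyclin D that growth factors induce, stood at 16.1, 25.7, 10.6 and 33.9 CPM, which overlapped non-cycling cells (17.3 to 38.9 CPM) and cycling *Myog*-negative cells (30.4 to 45.7 CPM). *Cdk2*, the partner of cyclins E and A, stood at 102 to 113 CPM, above both non-cycling cells (45.1 to 52.1 CPM) and cycling *Myog*-negative cells (61.3 to 71.1 CPM). *Cdk4* stood at 403 to 443 CPM, against 285 to 316 CPM and 338 to 408 CPM. *Cdk6* stood at 46.4 to 64.9 CPM, below the 93.8 to 115 CPM of cycling *Myog*-negative cells.

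Among the muscle regulatory factors, *Myod1* was higher in these cells than in both other sets. It stood at 303, 263, 289 and 262 CPM, against 165 to 202 CPM in non-cycling and 85.6 to 120 CPM in cycling *Myog*-negative cells. *Pax7* was low at 32.1, 22.3, 28.0 and 22.6 CPM, against 142 to 167 CPM in cycling *Myog*-negative cells and 8.07 to 14.7 CPM in non-cycling cells. *Myf5* stood at 7.13 to 15.4 CPM against 143 to 177 CPM. The last set was chosen in part on *Pax7*, *Myf5* and *Myod1*, so its levels of these genes are raised by its rule.

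Partners of these factors were graded. *Mef2c*, a co-activator of myogenin, stood at 33.9, 52.3, 43.1 and 58.1 CPM, between 18.4 to 25.3 CPM in cycling *Myog*-negative cells and 88.0 to 122 CPM in non-cycling cells. *Mef2a* was also between them at 237 to 351 CPM, against 122 to 133 and 422 to 452 CPM. *Rbm24*, an RNA-binding protein gene of muscle differentiation, had nearly reached the non-cycling level, with 445 to 511 CPM against 557 to 655 CPM and 73.1 to 91.6 CPM in cycling *Myog*-negative cells. *Id3*, an inhibitor of helix-loop-helix factors, was at 326 to 400 CPM, below 759 to 965 CPM in cycling *Myog*-negative cells and above 177 to 222 CPM in non-cycling cells. *Myf6* was near the limit of detection, with 0 to 1.13 CPM. Of the 18 measured genes of this list, 13 lay between the other sets in all 4 libraries, as did 2101 of all 8966 genes. The split on *Myog* in part sets this order.

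Notch genes, which keep progenitors undifferentiated, were mixed. The receptor gene *Notch3* stood at 8.92 to 23.4 CPM against 116 to 148 CPM in cycling *Myog*-negative cells, and the target *Hes1* at 63.5 to 98.8 CPM against 183 to 230 CPM. The ligand gene *Dll1* ran the other way, with 45.5 to 58.9 CPM against 6.97 to 10.5 CPM. *Notch1* was at 125 to 133 CPM, above both other sets (95.3 to 107 and 93.1 to 101 CPM).

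Fusion and adhesion genes were mixed as a list, with 5 of 15 measured genes above and 6 below non-cycling cells in all 4 libraries (median ratio 0.998). Over all genes the shares were 32.9% above and 25.8% below. Against cycling *Myog*-negative cells, 5 were above and 8 below (median ratio 0.762), beside 25.3% and 31.4% of all genes. *Mymk* (myomaker), the membrane protein required for myoblast fusion, stood at 45.5, 76.3, 54.4 and 41.8 CPM, against 158 to 203 CPM in non-cycling cells and 0 to 1.06 CPM in cycling *Myog*-negative cells. Its partner *Mymx* (myomixer) stood at 206, 251, 236 and 184 CPM, against 530 to 620 CPM and 0.263 to 0.894 CPM. In each case the 3 sets did not overlap. Cycling *Myog*-negative cells were chosen for lacking *Myog*, so the contrast with them is in part set by the rule. *Mymk* had a UMI in 40.3% and *Mymx* in 70.3% of the cycling *Myog*-positive cells, beside 0.662% and 0.993% of cycling *Myog*-negative cells, whose median depth was 13462.5 UMIs. *Cdh15* (M-cadherin) was on in all sets, at 93.7 to 102 CPM against 109 to 128 and 72.7 to 82.3 CPM.

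Of 23 measured early differentiation genes, 17 lay between the other sets in all 4 libraries, beside 2101 of the 8966 genes. Cycling *Myog*-negative cells were chosen for lacking *Myog*, so this order is in part set by the rule. In this list 20 genes were below non-cycling cells (median ratio 0.464), beside 25.8% of all genes. Above cycling *Myog*-negative cells were 19 (median ratio 4.29), beside 25.3% of all genes. *Chrna1* stood at 102, 105, 113 and 93.1 CPM, against 235 to 287 CPM in non-cycling and 8.94 to 10.6 CPM in cycling *Myog*-negative cells. *Actc1*, the cardiac actin gene that fetal muscle uses early, stood at 2373, 2801, 2808 and 2425 CPM, against 3780 to 4131 CPM and 91.7 to 172 CPM. *Dok7*, an adaptor of the neuromuscular junction, was the closest to the non-cycling level, with 63.3 to 78.1 CPM against 68.3 to 78.1 CPM and 1.79 to 3.82 CPM.

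Of 10 measured sarcomere genes of later fibres outside the rule, 2 were above and 7 below non-cycling cells in all 4 libraries (median ratio 0.547). Over all genes the shares were 32.9% above and 25.8% below. Against cycling *Myog*-negative cells, 7 were above and 3 below (median ratio 2.07), beside 25.3% and 31.4% of all genes. *Tnnt2* of the early list, the cardiac troponin T of early myotubes, stood at 119 to 205 CPM against 663 to 843 CPM in non-cycling cells, and titin (*Ttn*) at 194 to 282 CPM against 514 to 770 CPM. *Des* (desmin) stood at 36.9 to 56.2 CPM, which overlapped cycling *Myog*-negative cells (32.9 to 47.6 CPM) and lay below non-cycling cells (97.2 to 107 CPM). The embryonic myosin gene *Myh3* stood at 5.35 to 14.1 CPM against 19.4 to 34.8 CPM. The rule holds contractile content down in all 3 sets, so low structural levels are in part set by it.

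**Figure D3:**
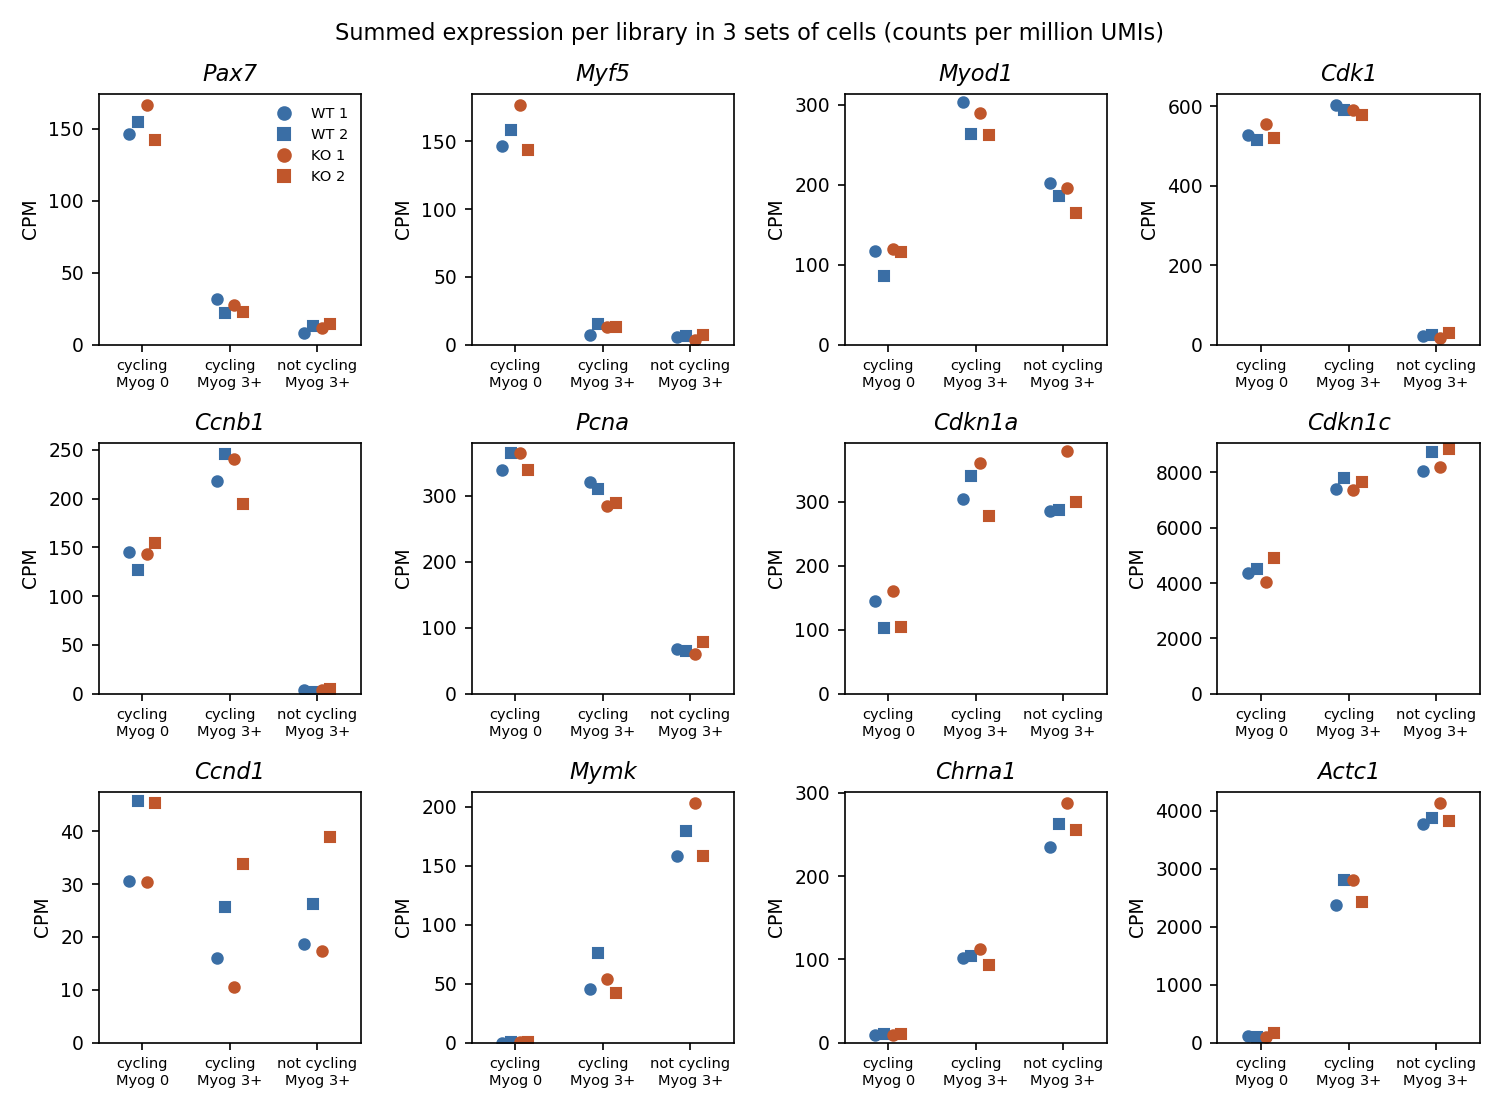
Summed expression in CPM of 12 genes in cycling *Myog*-negative, cycling *Myog*-positive and non-cycling *Myog*-positive cells, with 1 point per library (blue WT, orange KO, circles replicate 1, squares replicate 2). *Mymk*, *Chrna1* and *Actc1* rise from left to right without overlap, *Cdk1* and *Ccnb1* are highest in the middle set, and *Cdkn1a* is as high there as in non-cycling cells.

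*Ezh2*, the methyltransferase of the Polycomb complex, was higher in both cycling sets than in the non-cycling set. It stood at 451, 447, 449 and 413 CPM, against 82.9 to 97.2 CPM in non-cycling *Myog*-positive cells and 406 to 481 CPM in cycling *Myog*-negative cells. Its partners *Suz12* (187 to 239 CPM against 88.6 to 101 CPM in non-cycling cells) and *Eed* (90.9 to 119 CPM against 45.5 to 58.1 CPM) were also above non-cycling cells. In all, 7 of the 9 Polycomb genes were above and 2 below non-cycling cells in all 4 libraries, beside 32.9% and 25.8% of all genes. The split on *Mki67* and *Top2a* in part sets this contrast. The alternative methyltransferase gene *Ezh1* stood at 2.68 to 8.58 CPM against 9.87 to 15.9 CPM.

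Of 15 insulin-like growth factor and pleiotrophin genes, 3 were above and 2 below non-cycling cells in all 4 libraries (median ratio 1.10). Over all genes the shares were 32.9% above and 25.8% below. Against cycling *Myog*-negative cells, 2 were above and 10 below (median ratio 0.706), beside 25.3% and 31.4% of all genes. *Igf2* stood at 318 to 353 CPM, which overlapped non-cycling cells (314 to 361 CPM) and was below cycling *Myog*-negative cells (456 to 487 CPM). *Igfbp5* stood at 52.3 to 81.2 CPM against 195 to 238 CPM in cycling *Myog*-negative cells. *Ptn* (pleiotrophin) stood at 161 to 181 CPM, above both non-cycling cells (72.0 to 124 CPM) and cycling *Myog*-negative cells (133 to 154 CPM). *Mstn* (myostatin), which restrains muscle growth, stood at 23.2, 40.3, 15.1 and 31.6 CPM, a spread that overlapped both other sets. Genes induced by tissue dissociation were lower than in cycling *Myog*-negative cells for 22 of 26 genes (median ratio 0.617), beside 31.4% of all genes. *Fos* stood at 798 to 1134 CPM against 1644 to 2431 CPM.

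The genes with the largest ratios describe the same borders. Against non-cycling cells these were *Hist1h2af*, *Depdc1a*, *Nuf2*, *Esco2*, *Pbk*, *Kif4*, *Ckap2l*, *Aurkb*, *Hist1h2ab* and *Nusap1*, most of them genes of chromosome segregation. *Nusap1*, which bundles spindle microtubules, stood at a mean of 384 CPM against 3.61 CPM. The replication-dependent histone genes in this list belong to a family of near-identical copies, so their single values are uncertain. The largest ratios in the other direction included *Cpa3* and *Hbb-bs*, markers of mast cells and red cells, which stood in the non-cycling set at 3.38 to 156 and 1.99 to 241 CPM depending on the library. The other 8 were *Myo16*, *Mylk4*, *Chchd10*, *Cck*, *Synpo2l*, *Dpp6*, *Gamt* and *Tnni1*. *Tnni1*, the slow troponin I, stood at a mean of 43.2 CPM against 214 CPM, and *Gamt*, an enzyme of creatine synthesis, at 35.5 CPM against 187 CPM.

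Against cycling *Myog*-negative cells, the split on *Myog* in part sets the ratios. The largest belonged to *Mymx*, *Mymk*, *Casz1*, *Frmpd1*, *Dok7*, *Tnnt2*, *Actc1*, *Frmd4b*, *Cnr1* and *Gm28653*. *Casz1*, a zinc finger factor gene, stood at a mean of 74.6 CPM against 2.05 CPM. Ratios in the other direction were led by *Myf5*, *Nppc*, *Itga1*, *Col6a6*, *Fgf12*, *Pxdc1*, *St6galnac3*, *Cxcl1*, *Notch3* and *Msc*. *Msc* (musculin), a repressor of myogenic factors, stood at a mean of 34.0 CPM against 294 CPM.

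Of the 8966 genes with at least 10 CPM in a set, 597 were above both other sets in all 4 libraries. At 50 CPM or more, 430 genes were. *Car3*, a carbonic anhydrase gene of muscle, had the largest of these ratios, with a mean of 84.3 CPM against 34.6 CPM in non-cycling and 37.5 CPM in cycling *Myog*-negative cells. *E2f2*, an activator of cell cycle genes, was also among them at 154 CPM against 39.9 and 78.0 CPM. *Cdc25b*, the phosphatase that activates *Cdk1*, stood at 63.0 CPM against 9.0 and 35.7 CPM. *Fzr1* (Cdh1), which keeps the anaphase-promoting complex active in G1, stood at 55.7 CPM against 13.6 and 34.2 CPM, and the transcription factor gene *Sox11* at 367 CPM against 180 and 217 CPM.

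The cycling *Myog*-positive cells differed among themselves along *Myog*. They were split by *Myog* per 10000 UMIs of the cell into 61 cells with under 5, 151 with 5 to 20 and 135 with 20 or more. Pooled over libraries, *Mymk* was at 7.18, 27.9 and 100.5 CPM in these bins, and *Mymx* at 45.1, 132 and 382 CPM. Both were higher in the highest than in the lowest bin in every library. *Actc1* was at 1189, 2223 and 3610 CPM and *Cdkn1a* at 206, 273 and 414 CPM, while *Myod1* stayed between 261 and 299 CPM.

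Progenitor genes ran in the opposite direction. *Pax7* was at 49.2, 27.0 and 14.0 CPM and *Ccnd1* at 44.1, 22.2 and 13.5 CPM. *Hes1* was at 131, 90.8 and 54.9 CPM. Its libraries ranged from 66.3 to 204 CPM in the lowest bin and from 47.8 to 64.1 CPM in the highest.

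Cell cycle content shifted as well. *Ccnb1* was at 137, 189.6 and 293 CPM with rising *Myog*, and the mitotic list as a whole at 6855, 7181 and 9072 CPM. *Pcna* was at 369, 331 and 233 CPM and the replication list at 3602, 3309 and 2480 CPM. The libraries did not overlap for *Ccnb1* between the lowest and highest bins (70.5 to 190 against 266 to 313 CPM), while those for *Pcna* did (261 to 454 against 175 to 289 CPM). Over the 347 cells, Spearman's rho of *Myog* per UMI with the early differentiation list was 0.755, with the mitotic list 0.297 and with the replication list −0.278. The cells share 4 libraries and the lists share each cell's total, so these are descriptions.

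**Figure D4:**
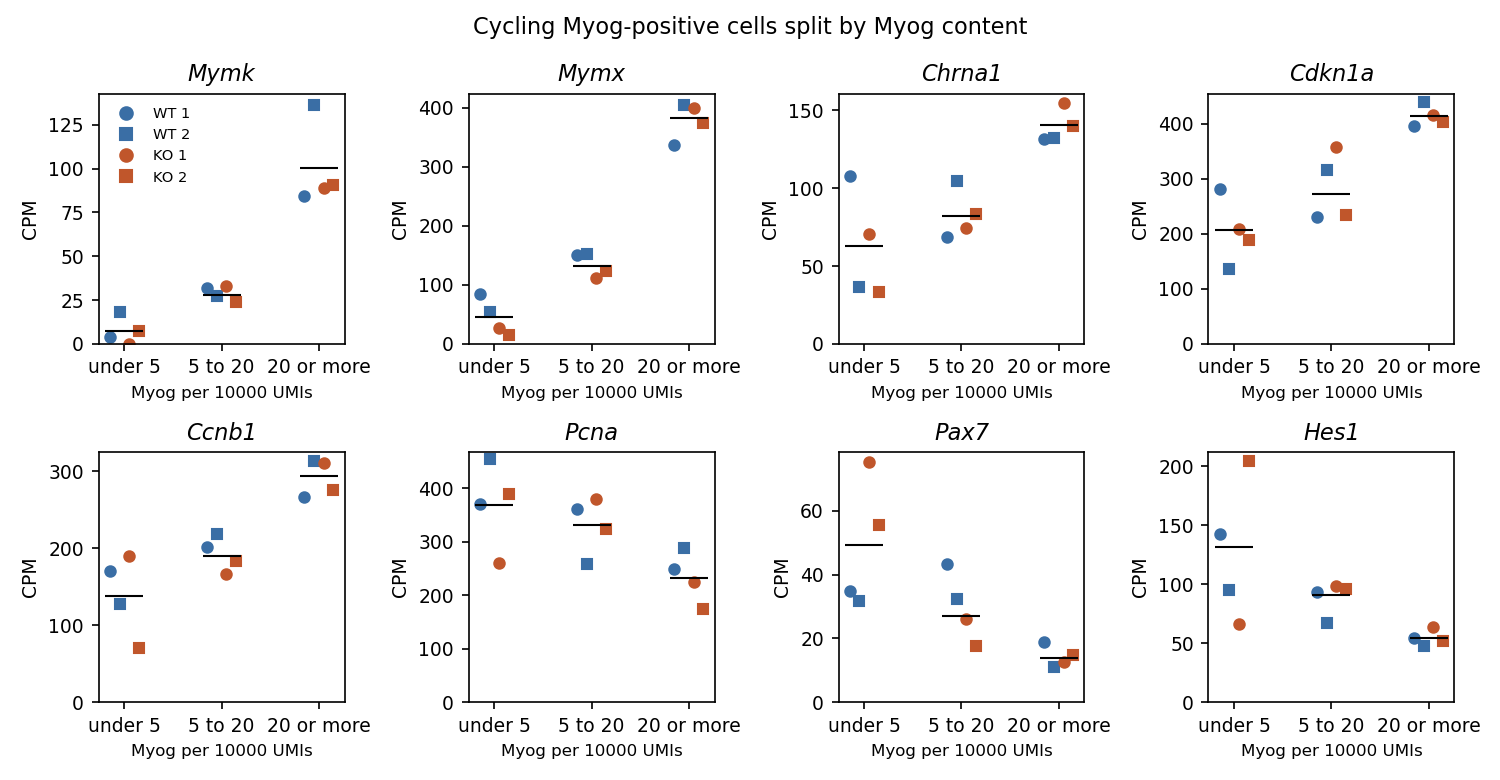
Expression in CPM of 8 genes in cycling *Myog*-positive cells with under 5, 5 to 20 and 20 or more *Myog* UMIs per 10000, with 1 point per library (blue WT, orange KO, circles replicate 1, squares replicate 2) and a black bar for the pooled value. *Mymk*, *Mymx* and *Ccnb1* are higher in the highest bin than in the lowest in all 4 libraries.

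Differentiation genes were lower in cells with more *Mki67* and *Top2a* UMIs. In *Myog*-positive cells with 0 and with 1 or 2 such UMIs (1105 and 214 cells), *Mymk* was at 174 and 120.5 CPM. In cycling cells with 3 to 9, 10 to 19 and 20 or more UMIs (95, 104 and 148 cells), it was at 58.4, 49.2 and 52.7 CPM. *Chrna1* gave 260, 189, 105, 97.1 and 103 CPM in the same order. Most of the difference thus lay below the limit of 3 UMIs, and the library ranges of the 3 bins of cycling cells overlapped. Median depth went from 10769 to 17315.5 UMIs over these bins.

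To determine whether loss of *SYISL* altered expression within the cycling *Myog*-positive cells, UMIs were summed per library and KO was compared with WT. No gene of the 8764 tested passed an adjusted p of 0.05 (percent called 0%, edgeR quasi-likelihood test, Benjamini-Hochberg adjustment over all genes, smallest adjusted p 0.530). At an unadjusted p under 0.05 there were 210 genes higher and 186 lower in KO, and the median log2 fold change was 0.00. DESeq2 called 1 gene, *Xist*, the transcript that set KO replicate 2 apart. Each fit that left out 1 library called 19 to 33 genes, with 21 when KO replicate 2 was left out, and in these fits the lone library of a genotype was assumed to vary like the others.

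The genes that define the state showed log2 fold changes near 0. The value for *Myod1* was −0.03 (SE 0.11, adjusted p = 0.993) and for *Cdkn1c* −0.0022 (SE 0.06, adjusted p = 1.00). *Actc1* gave 0.03 (SE 0.08) and *Chrna1* 0.00 (SE 0.15), while *Cdkn1a* gave −0.01 (SE 0.12) and *Cdh15* −0.03 (SE 0.15). *Pcna* was lower in both KO than in both WT libraries, with a log2 fold change of −0.12 (SE 0.10, adjusted p = 0.987). *Mymk*, whose WT libraries themselves differed (45.5 and 76.3 CPM), gave −0.34 (SE 0.24, adjusted p = 0.987), and *Ccnb1* −0.09 (SE 0.12). The low genes *Pax7*, *Mef2c* and *Ccnd1* gave −0.10 (SE 0.27), 0.26 (SE 0.24) and 0.18 (SE 0.40). *Myog*, which the rule used, stood at 1488 and 1875 CPM in WT and at 2070 and 1575 CPM in KO, and the groups overlapped.

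The lists gave no called gene. Among 30 cyclin, CDK and mitotic genes, 22 had a negative log2 fold change, beside 4340 of all 8764 tested genes. The median of the list was −0.09 (0.00 over all genes). In 12 of the 30, both KO libraries were below both WT libraries and in 0 both were above, beside 18% and 15.7% of all tested genes. The largest of these was *Ndc80*, a kinetochore gene, at −0.40 (SE 0.14, unadjusted p = 0.0103). Of 30 replication genes 17 were negative (median −0.08), with 8 below and 5 above without overlap. The summed mitotic list stood at 8082, 8201, 8098 and 7370 CPM, so that KO replicate 1 lay between the WT libraries and KO replicate 2 was lowest.

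Early differentiation genes had a median of 0.02 over 21 genes, with 5 above and 1 below without overlap. Of all tested genes, 15.7% were above and 18% below without overlap. *Tnnt2* gave 0.41 (SE 0.15, unadjusted p = 0.0147) and *Rapsn*, the clustering protein of acetylcholine receptors, 0.65 (SE 0.29, unadjusted p = 0.0406). *Tnni1*, of the later fibre list, stood at 23.2 and 30.02 CPM in WT and at 71.8 and 48.0 CPM in KO, with a log2 fold change of 1.16 (SE 0.25, adjusted p = 0.744). The fusion list had a median of −0.07 over 15 genes, muscle regulatory factors and partners 0.09 over 18, Polycomb genes 0.06 over 9, Notch genes 0.07 over 11, exit genes −0.0022 over 21, G1 genes 0.02 over 6, myostatin and TGF-beta genes −0.03 over 11 and insulin-like growth factor and pleiotrophin genes 0.05 over 14.

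Of genes with at least 50 CPM and both KO libraries on 1 side of both WT libraries, those with the smallest p were *Acta2*, *Fabp4*, *Postn* and *Atf3* on the higher side. None passed the test. *Acta2*, the smooth muscle actin gene that myoblasts also express, stood at 452 and 389 CPM in WT and at 712 and 549 CPM in KO, with a log2 fold change of 0.59 (SE 0.11, adjusted p = 0.530). In KO replicate 1, 222 of its 942 UMIs came from 1 cell that Scrublet marked, and without that cell the library stood at 550 CPM. *Atf3*, a stress-induced factor gene, stood at 66.0 and 81.5 CPM in WT and at 106 and 125 CPM in KO (log2 0.67, SE 0.16, adjusted p = 0.963). It is a member of the dissociation list, whose median was 0.01 over 26 genes.

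*Fabp4*, a fatty acid binding protein gene of adipocytes and endothelium, had a UMI in 111 of the 347 cells. It stood at 38.3 and 28.3 CPM in WT and at 46.8 and 198 CPM in KO (log2 1.95, SE 0.44, adjusted p = 0.744). In KO replicate 2, 309 of its 350 UMIs came from 1 cell that Scrublet marked, and in KO replicate 1, 20 of 62 came from 1 marked cell. Without the highest cell of each library the values were 32.5 and 15.6 CPM in WT and 32.1 and 23.4 CPM in KO. The genotypes then overlapped. *Postn*, a matrix gene of connective tissue, stood at 31.2 and 57.5 CPM in WT and at 110 and 75.6 CPM in KO (log2 1.06, SE 0.24, adjusted p = 0.744), and with cells marked by Scrublet removed the value was 0.34. Of 9 fibro-adipogenic markers outside the rule, 7 were tested, and all 7 had positive log2 fold changes, beside 4424 of all 8764 tested genes. An unadjusted p under 0.05 in the edgeR test was found for *Dcn*, *Col1a1*, *Col3a1* and *Mfap5*. Of all 8764 tested genes, 210 were higher in KO at that limit. Their sum was 682 to 750 CPM in WT and 808 to 1130 CPM in KO, with *Pdgfra* at 0 by the rule. Smooth muscle and pericyte markers summed to 457 to 511 CPM in WT and 615 to 814 CPM in KO, most of it *Acta2*. Their part in these values was not tested. In cycling *Myog*-negative cells, 1 of 11712 genes passed KO against WT in the same edgeR test. This was *Rgs5* of the pericyte list (log2 2.78, adjusted p = 0.0477). In non-cycling *Myog*-positive cells, 5 of 10352 genes passed in that test, and 3 of them were fibro-adipogenic markers. These were *Col3a1* (log2 0.98, adjusted p = 0.0015), *Dcn* (1.498, adjusted p = 0.012) and *Col1a1* (1.35, adjusted p = 0.013), next to *Fabp4* (1.86, adjusted p = 0.0015) and the mast cell gene *Mcpt4* (−4.21, adjusted p = 0.0026).

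On the lower side stood *Btaf1*, *S100a6*, *Spag9* and *Pde3b*, and none passed the test. *Btaf1*, a regulator of the TATA-binding protein, stood at 339 and 307 CPM in WT and at 232 and 247 CPM in KO (log2 −0.41, SE 0.11, adjusted p = 0.963). *Spag9*, a scaffold of JNK signalling, stood at 215 and 193 against 156 and 146 CPM (log2 −0.42, SE 0.12, adjusted p = 0.983). *Pde3b*, a cyclic nucleotide phosphodiesterase gene, stood at 81.2 and 98.6 against 66.5 and 52.5 CPM (log2 −0.59, SE 0.18, adjusted p = 0.983). *S100a6*, a calcium-binding protein gene, stood at 65.1 and 66.9 against 35.5 and 42.3 CPM (log2 −0.73, SE 0.20, adjusted p = 0.983), but 59 of 73 UMIs in WT replicate 1 and 51 of 78 in WT replicate 2 came from 1 cell each. Without the highest cell of each library the values were 12.8 and 23.4 CPM in WT and 30.7 and 34.8 CPM in KO, and the order of the genotypes was the opposite.

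Without KO replicate 2, in a fit whose lone KO library was assumed to vary like the others, *Acta2* gave 0.76 (edgeR, adjusted p = 2.15e-08) and *Postn* 1.31 (adjusted p = 9.5e-06), and both passed. The other 6 did not pass, with 0.50 for *Fabp4*, 0.52 for *Atf3*, −0.47 for *Btaf1*, −0.89 for *S100a6*, −0.38 for *Spag9* and −0.43 for *Pde3b*. The KO value then came from replicate 1 alone, in which 1 marked cell held 222 of the *Acta2* UMIs and 1 marked cell held 50 of the 146 *Postn* UMIs.

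**Figure D5:**
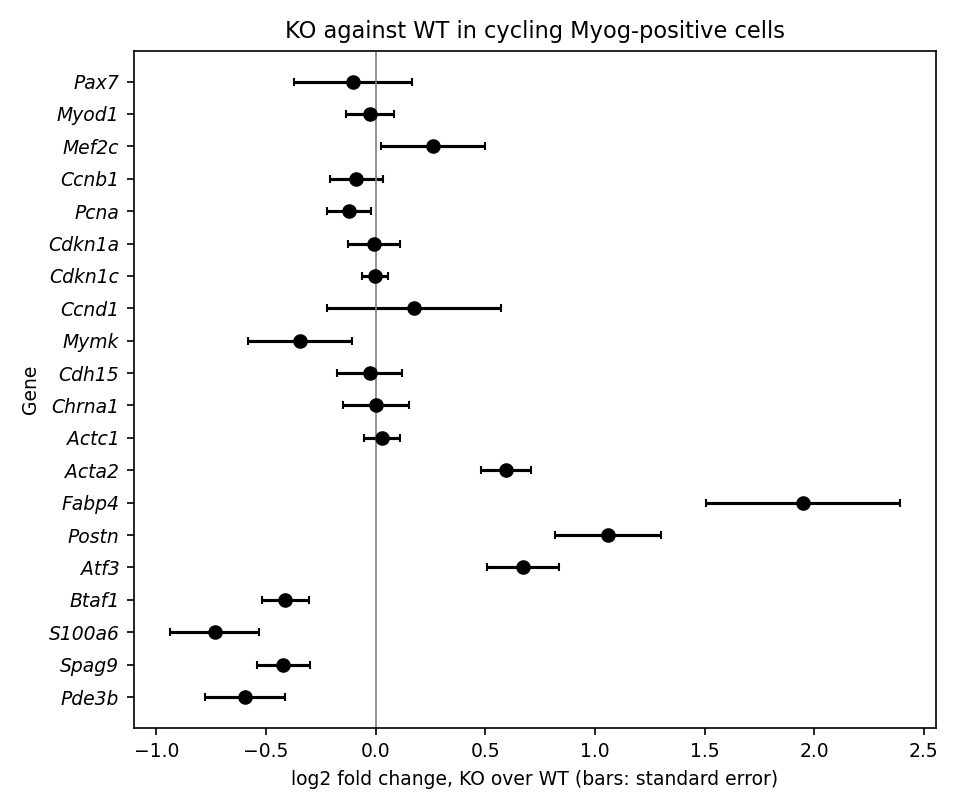
Log2 fold change of KO over WT in cycling *Myog*-positive cells (horizontal axis) for the 12 preset genes and the 8 genes with the smallest p, with points for estimates and bars for standard errors. The preset genes lie between −0.34 and 0.26, and none of the 20 genes passed the test.

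To see whether the KO effect differed from that in the flanking sets, the difference itself was tested with the library as a block. Against non-cycling *Myog*-positive cells, 0 of 10734 genes passed (percent called 0%, edgeR quasi-likelihood test, smallest adjusted p 0.270, with 408 genes at an unadjusted p under 0.05, and 0 by DESeq2). Against cycling *Myog*-negative cells, 1 of 11366 genes passed (0.0088%). This was *Fabp4*, whose KO effect was higher by 2.30 on the log2 scale (SE 0.36, adjusted p = 0.0361). In cycling *Myog*-negative cells *Fabp4* stood at 66.1 and 114 CPM in WT and at 49.0 and 77.8 CPM in KO, and in the cycling *Myog*-positive cells KO replicate 2 owed most of its UMIs to the single marked cell described above. With cells marked by Scrublet removed the value was 0.54 (adjusted p = 0.996), and no gene passed. Without KO replicate 2 it was 1.35 (adjusted p = 0.0148), in a fit whose lone KO library was assumed to vary like the others.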

How the data were processed

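Single-cell RNA sequencing was carried out on leg muscle from 2 WT and 2 KO libraries of E18.5 fetuses. The authors aligned reads to mm10 with Cell Ranger 7.2.0 and deposited the matrices of unnormalized counts, in UMIs. Whether intronic reads were counted was not given in the sources used here. The study's own limits on cells were applied (genes 1000 to 6000, UMIs 1000 to 25000, mitochondrial share under 8%). Doublets were not removed in the main setting, and Scrublet (scanpy 1.11.5) was run per library as an alternative. The cells, gene lists and rules were chosen with earlier results of these data known.

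UMIs were summed per library and set of cells, and CPM are these sums scaled to all UMIs of the set. KO and WT were compared by the quasi-likelihood test of edgeR 4.0.16 in R 4.3.3, after filterByExpr and TMM scaling. P-values of all tested genes were adjusted together (Benjamini-Hochberg) and called at 0.05. The steps were tested on simulated data. Shares were compared by exact permutation. Alternatives were DESeq2 1.42.0, RLE factors, other filters and limits, thinning and leaving out each library. Named genes were 12 preset genes, up to 4 genes a direction of at least 50 CPM without overlap of the genotypes, by smallest p, and called genes. Between sets, the 10 genes a direction with the largest ratio were named, with members of the lists. Other genes named for being above both sets, within the promoter section or within a list were picked after their values were seen. Replicates were samples with their own label, and p-values measure only the spread between these libraries. The summed erythroid marker list is not reported here.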

Additional observations from a re-analysis of the deposited data

Results flagged for a closer look

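The KO effect on *Fabp4* differed between cycling *Myog*-positive and cycling *Myog*-negative cells by 2.30 on the log2 scale (edgeR quasi-likelihood test, SE 0.36, adjusted p = 0.0361), which is a difference between 2 sets of cells under the same contrast. In the cycling *Myog*-positive cells both KO libraries were above both WT libraries, and 309 of the 350 UMIs in KO replicate 2 came from 1 cell that Scrublet marked. Without the highest cell of each library the genotypes overlapped. Across the alternatives the adjusted p ranged from 1.65e-27 without KO replicate 1 to 1.00 with DESeq2, and the value ranged from 0.54 with marked cells removed to 2.88 without WT replicate 1.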

How the results depend on the processing

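No gene passed the test of KO against WT with RLE factors, with at least 10 UMIs in every library, with cells marked by Scrublet removed, with the looser cell filter or with other limits on *Myog*, *Mki67* and *Top2a* or contractile UMIs. Without a filter on low counts 28 genes passed, and 1 (*Xist*) passed with DESeq2. Leaving out 1 library gave 19 (without WT replicate 1) to 33 genes (without WT replicate 2), in fits that take the spread of the lone library from the other genotype. The replicate block gave 20 genes, 15 higher and 5 lower, but same-numbered libraries did not deviate together (correlation −0.04) and share only a number. Differences of the KO effect from non-cycling cells gave 12 genes without a filter, 2 without marked cells (*Snorc*, *Col1a1*) and 12 to 24 with 1 library left out. Those from cycling *Myog*-negative cells gave 15 genes without a filter, 0 with RLE factors, 0 with DESeq2, 0 without marked cells and 16 to 25 with 1 library left out. The cause of these changes was not tested.

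The difference in the share of kept cells ranged from 0.118 to 0.348 percentage points with 1 library left out, and that of *Myog*-positive cells from 1.13 to 4.68. The latter was −0.630 after thinning to 3000 UMIs.

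Several log2 fold changes changed sign, most of them close to 0, and none of these genes passed KO against WT as reported. *Myod1* gave 0.00016 with the looser cell filter. *Cdkn1a* gave 0.0074 without a filter, 0.00079 with at least 10 UMIs and 0.025 with *Myog* at 5 UMIs. *Cdkn1c* gave 0.0104 without a filter, 0.0055 with at least 10 UMIs, 0.012 without marked cells, 0.031 with the looser filter, 0.0102 with *Myog* at 5 UMIs and 8.6e-05 with contractile UMIs under 0.25%. *Ccnd1* gave −0.036 with that limit. *Cdh15* gave 0.081 with the looser filter. *Chrna1* gave −0.0038 with RLE factors, −0.056 with the looser filter, −0.042 with *Mki67* and *Top2a* at 5 UMIs and −0.0298 with the contractile limit. *Actc1* gave −0.00089 with *Mki67* and *Top2a* at 5 UMIs, and *Fabp4*, at 1.95 in the report, gave −0.23 without marked cells. With 1 library left out, values ranged from −0.35 to 0.18 for *Pax7*, −0.13 to 0.076 for *Myod1*, −0.017 to 0.60 for *Mef2c*, −0.23 to 0.056 for *Ccnb1*, −0.19 to 0.17 for *Cdkn1a*, −0.041 to 0.036 for *Cdkn1c*, −0.97 to 0.72 for *Ccnd1*, −0.67 to 0.073 for *Mymk*, −0.10 to 0.035 for *Cdh15*, −0.12 to 0.13 for *Chrna1* and −0.086 to 0.15 for *Actc1*. Of the values of single genes under the alternatives, 253 kept direction and side of the threshold, 36 changed sign, 17 passed the threshold only there and 3 no longer passed it. With 66 to 121 cells per library, low genes such as *Ccnd1* rest on few UMIs.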
